A study of Mus musculus with 4 samples.

Results

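The genes described here encode the transforming growth factor beta (TGF-beta) ligands Tgfb1, Tgfb2 and Tgfb3, their receptors Tgfbr1, Tgfbr2 and Tgfbr3, the signal transducers Smad2 and Smad3, and the genes Tgfbi and Tmeff1, which TGF-beta is known to induce. They were taken by gene symbol from a table of RNA-seq counts, in which all 10 symbols were found among 55401 genes, and all 10 passed the filter on low counts. The libraries were made from C57BL/6 hair follicle stem cells in anagen, when follicles grow hair. The HFD group had received a high-fat diet for 4 months and the ND group a normal diet, with 2 libraries per diet. Beyond diet no genotype, transgene or other treatment is named for either group, and the labels used here give no age, sex or isolation method and do not say whether each library is a mouse of its own. The p-values below thus rest on library-to-library spread, which could be technical.

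TGF-beta ligands are secreted in a latent form, released by integrins and proteases, and bind the type II receptor Tgfbr2, which recruits and phosphorylates the type I receptor Tgfbr1. The receptor complex phosphorylates Smad2 and Smad3, which enter the nucleus with Smad4 and regulate target genes. In mouse skin, Tgfb2 from the dermal papilla is known to act on follicle stem cells at the onset of anagen, where Smad2 and Smad3 activity raises Tmeff1 and thereby restrains the opposing bone morphogenetic protein signal.

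Total counts were 8734246 and 8590570 in the HFD libraries and 9940848 and 9366856 in the ND libraries, so that 3 counts, taken as the floor, were worth between 0.291 and 0.358 CPM (counts scaled to the library size, itself adjusted by the TMM method). The libraries of 1 diet differed by more than sampling noise, with a chi-square of 6.53 per degree of freedom between the HFD pair and 13.9 between the ND pair. ND library 1 stood farthest from the others (24.98 and 25.5 against the HFD libraries). All 8 bulge stem cell markers were counted, Krt15, Cd34, Lgr5 and Sox9 among them, with summed levels of 5470 and 5310 CPM in HFD and 4592 and 5418 CPM in ND libraries. Krt15, with the highest level of the 8, stood at 3004 and 2971 CPM in HFD and 1990 and 2715 CPM in ND libraries. None of the 8 was called in edgeR, where 1.35% of all genes tested were. However, 6 of them, Cd34, Lgr5, Sox9, Lhx2, Nfatc1 and Tcf3, were lower in both HFD libraries, and Krt15 and Itga6 were higher in both. Such a lack of overlap between the diets held for 44.6% of all genes tested. The log2 fold changes were -0.49 ± 0.12 (SE) for Lhx2 (edgeR adjusted p = 0.0739) and 0.34 ± 0.14 (SE) for Krt15 (edgeR adjusted p = 0.302). The part of these marker levels in the results below was not tested. In bulk RNA, fewer cells of a type and less RNA per cell cannot be told apart.

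The diets differed most in Tgfb3, the main ligand transcript of these libraries, which stood at 0.689 of its ND level in HFD libraries, and in the co-receptor Tgfbr3 and the ligand Tgfb2, which stood at 1.82-fold and 1.70-fold of theirs. The other 7 genes, among them both Smads and Tgfbi, had fold changes between 0.938 and 1.25. None of the 10 genes passed the test between the diets (edgeR quasi-likelihood test, adjusted p under 0.05 over all 14479 genes tested), where 1.35% of all genes did (1.12% called higher and 0.228% called lower). At an unadjusted p under 0.05 there were 3, Tgfbr3, Tgfb3 and Tgfb2, against 13.3% of all genes. The alternative test DESeq2 called 2 of the 10, Tgfb3 and Tgfbr3, where it called 2.72% of all genes, and limma on log2(FPKM + 1) called 0, with 0.0138% of all genes called. For 5 of the 10 genes both libraries of 1 diet lay above both of the other, which held for 44.6% of the genes tested.

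In length-scaled units (FPKM, counts relative to exon length and to the library's total) the genes spanned a wide range of levels. Tgfbi was the most abundant in all 4 libraries, followed by Tgfb3, and Tgfb2 was the least abundant in all 4. In HFD libraries the order of mean FPKM was Tgfbi, Tgfb3, Tgfbr2, Tgfb1, Smad3, Smad2, Tgfbr1, Tgfbr3, Tmeff1 and Tgfb2, and in ND libraries Tmeff1 stood above Tgfbr3. Among neighbours in the HFD order, the libraries of Tgfb1 overlapped those of Smad3, those of Smad2 overlapped Tgfbr1, and those of Tgfbr1 overlapped Tgfbr3. In ND libraries the neighbours Tgfbr2 and Tgfb1 overlapped. Tgfbi averaged 138 ± 22.4 FPKM in HFD and 136 ± 27.5 FPKM in ND libraries (SD, n = 2 each). Tgfb2, at the low end, had 2.63 and 3.80 FPKM in HFD libraries and 2.03 and 1.97 FPKM in ND libraries.

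**Figure D1:**
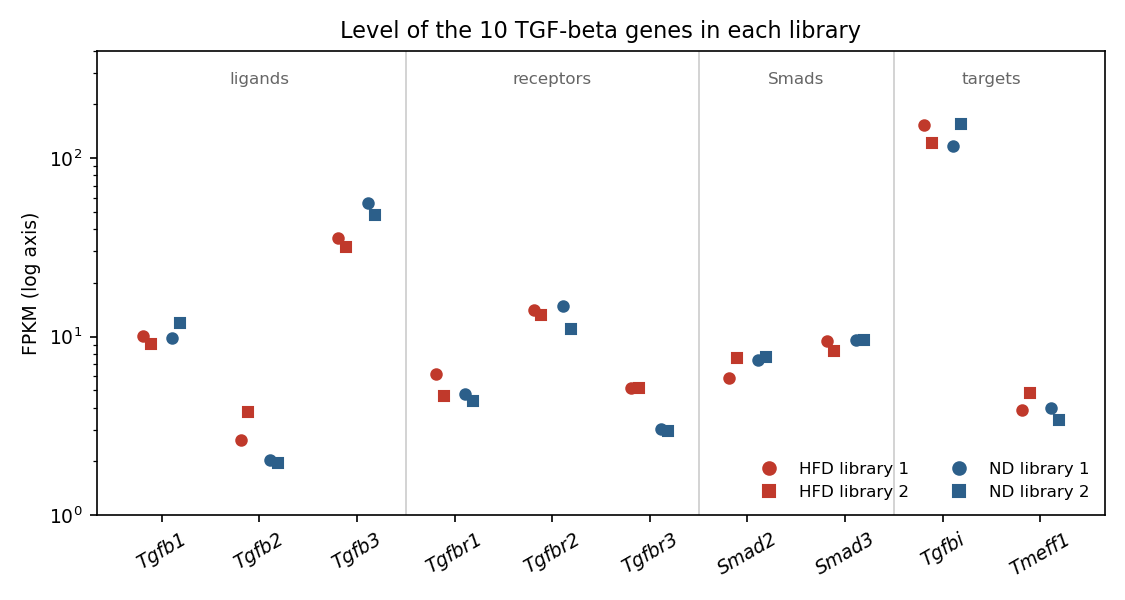
FPKM (log axis) of the 10 genes in the 2 HFD libraries (red) and the 2 ND libraries (blue), grouped by role. Tgfbi lies between 117 and 156 FPKM in all libraries, and Tgfb3 is the ligand with the highest level in each.

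Tgfb3, the most abundant ligand transcript in these libraries, was lower in both HFD libraries (chromosome 12, positions 86056745 to 86079041, minus strand, build GRCm38). It had 1058 and 920 counts in HFD libraries and 1879 and 1529 counts in ND libraries. On the CPM scale these were 126 and 110 in HFD, with a mean of 118 ± 11.2 (SD, n = 2), and 182 and 160 in ND, with a mean of 171 ± 15.8 (SD, n = 2). The diets did not overlap, and the gap between the closest libraries was larger than the spread within either diet. The log2 fold change was -0.54 ± 0.14 (SE), which missed the threshold in edgeR (adjusted p = 0.0948) and passed it in DESeq2 (adjusted p = 0.0265). It was -0.44 without ND library 1 and -0.64 without HFD library 1. The last 5149 bases of the gene overlap Ttll5 on the opposite strand, and the use of strand in counting is not given in the sources used here. Reads of the overlap can therefore not be assigned with certainty. Ttll5 itself stood at 54.5 and 51.9 CPM in HFD and 51.0 and 50.01 CPM in ND libraries, a small difference in the other direction from Tgfb3.

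Tgfb2, the ligand known from the dermal papilla, was the scarcest of the 3 (chromosome 1, positions 186622792 to 186705989, minus strand). It had 133 and 189 counts in HFD and 117 and 107 counts in ND libraries. This came to 15.8 and 22.5 CPM in HFD and 11.3 and 11.2 CPM in ND. Both HFD libraries were above both ND libraries, and the HFD libraries differed from each other by more than HFD library 1 differed from the ND libraries. The log2 fold change of 0.77 ± 0.29 (SE) did not pass (edgeR adjusted p = 0.262), and it was 1.0015 without HFD library 1 and 0.49 without HFD library 2.

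Tgfb1, the ligand best known for immune and fibrotic roles, differed between the diets by less than the spread within ND (chromosome 7, positions 25687002 to 25705077, plus strand). It stood at 52.7 and 47.1 CPM in HFD and 47.6 and 58.9 CPM in ND libraries, so the diets overlapped. Its log2 fold change was -0.092 ± 0.18 (SE; edgeR adjusted p = 0.888). Among related members the longest exact run shared by their annotated transcripts was 15 bases for any pair of ligands or receptors, and 23 bases for Smad2 and Smad3.

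**Figure D2:**
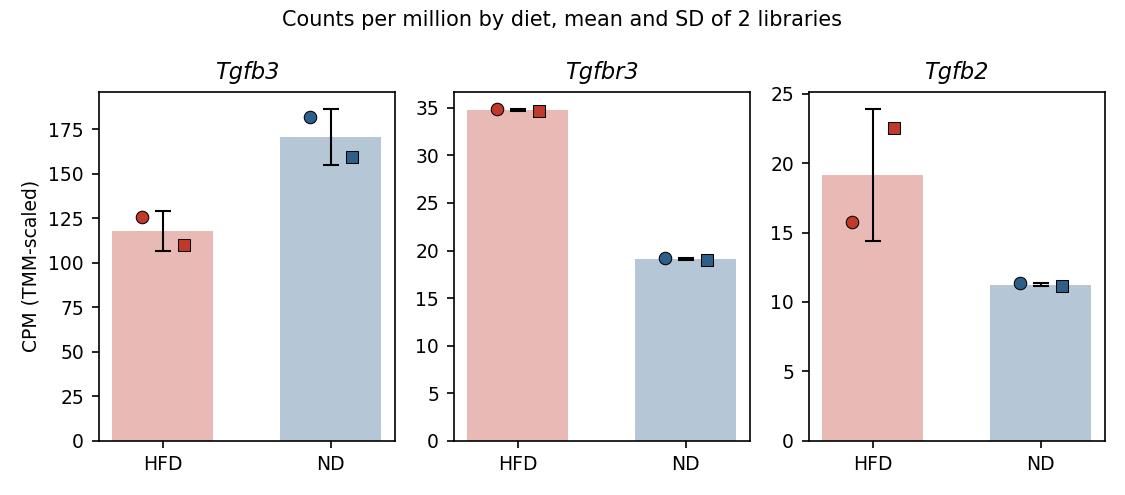
CPM of the 3 genes with an unadjusted p under 0.05, with HFD left of ND. Bars are means, error bars are SDs of 2 libraries, circles are library 1 and squares library 2, and each axis starts at 0. The Tgfb3 libraries are at 126 and 110 CPM in HFD and 182 and 160 CPM in ND.

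The make-up of the ligand transcripts followed these values. Summed over the ligands, the level was 48.5 and 44.6 FPKM in HFD and 67.7 and 62.2 FPKM in ND libraries. Tgfb3 made up 73.8% and 71.0% of that sum in HFD and 82.5% and 77.6% in ND. Tgfb2 made up 5.42% and 8.52% in HFD, against 2.999% and 3.17% in ND. Tgfb1 made up 20.8% and 20.5% in HFD, against 14.5% and 19.2% in ND. None of these shares overlapped between the diets, where the CPM of 44.6% of all genes tested did not either. The shares of a library add up to the whole, so they are not separate results. For Tgfb1 the gap between the diets was smaller than the spread within ND, and its CPM overlapped. With 2 libraries against 2 an exact two-sided permutation test cannot go below p = 0.333, so none was run. FPKM as deposited are scaled to the column total alone. In CPM, which carry the TMM scaling but no length scaling, the ligands summed to 194 and 179 in HFD libraries. The CPM sums in ND libraries were 241 and 230, a relatively smaller difference between the diets.

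**Figure D3:**
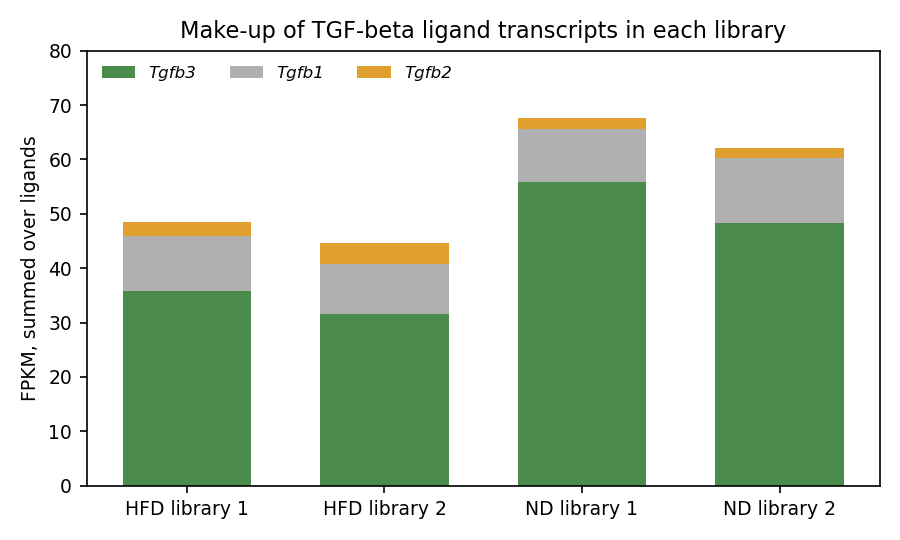
FPKM of Tgfb3, Tgfb1 and Tgfb2 stacked for each library. The total height is 48.5 and 44.6 FPKM in the HFD libraries and 67.7 and 62.2 FPKM in the ND libraries, with Tgfb3 as the largest layer in all 4.

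Among the receptors, the co-receptor Tgfbr3 differed most between the diets. Tgfbr3 encodes betaglycan, which presents ligand, and Tgfb2 in particular, to the signalling receptors (chromosome 5, positions 107106570 to 107289629, minus strand). It had 294 and 291 counts in HFD libraries and 198 and 182 counts in ND libraries. This came to 34.9 and 34.7 CPM in HFD (mean 34.8 ± 0.127, SD, n = 2) and 19.2 and 19.0 CPM in ND (mean 19.1 ± 0.126, SD, n = 2). The libraries of each diet nearly coincided and the diets lay far apart, at 1.82-fold. Counting error alone would usually spread counts of this size more widely, so these SDs understate the uncertainty. The log2 fold change was 0.87 ± 0.21 (SE), with an adjusted p of 0.0744 in edgeR and 0.0450 in DESeq2. By the size of p it ranked 289th among all genes tested. Leaving out any 1 library gave log2 fold changes between 0.86 and 0.88, a narrow range that follows from the same closeness of the libraries.

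The signalling receptors showed smaller differences. Tgfbr1, the type I receptor kinase (chromosome 4, positions 47353222 to 47414931, plus strand), stood at 41.7 and 31.0 CPM in HFD and 30.2 and 27.8 CPM in ND libraries. The diets did not overlap, but HFD library 2 lay close to ND library 1. Its log2 fold change was 0.32 ± 0.21 (SE; edgeR adjusted p = 0.569). Tgfbr2, the type II receptor that binds ligand first (chromosome 9, positions 116084293 to 116175360, minus strand), stood at 120 and 111 CPM in HFD and 117 and 88.5 CPM in ND libraries. ND library 1 lay between the HFD libraries, and the log2 fold change of 0.17 ± 0.16 (SE) did not pass (edgeR adjusted p = 0.717). Tgfbr2 was the most abundant of the 3 receptors, with 55.6% and 57.5% of their summed FPKM in HFD and 65.5% and 60.2% in ND. The share of Tgfbr3 was 20.2% and 22.4% in HFD and 13.4% and 16.2% in ND. Neither of these shares overlapped between the diets, while that of Tgfbr1 did. The CPM of 44.6% of all genes tested were without overlap, and the shares of a library depend on each other.

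The signal transducers showed the least difference. Smad2 (chromosome 18, positions 76241580 to 76310963) had 449 and 574 counts in HFD and 647 and 633 counts in ND libraries, or 53.3 and 68.5 CPM in HFD and 62.7 and 66.1 CPM in ND. The HFD libraries lay on either side of the ND pair, and the log2 fold change was -0.081 ± 0.17 (SE; edgeR adjusted p = 0.902). Smad3 (chromosome 9, positions 63646767 to 63757994), which unlike the main form of Smad2 binds DNA directly, had 54.6 and 47.2 CPM in HFD and 51.3 and 52.2 CPM in ND. Its log2 fold change of -0.024 ± 0.17 (SE; edgeR adjusted p = 0.980) was the smallest in size of the 10. Smad3 held 61.9% and 52.2% of the summed FPKM of both Smads in HFD, and 56.5% and 55.6% in ND. It exceeded Smad2 in every library per unit length.

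**Figure D4:**
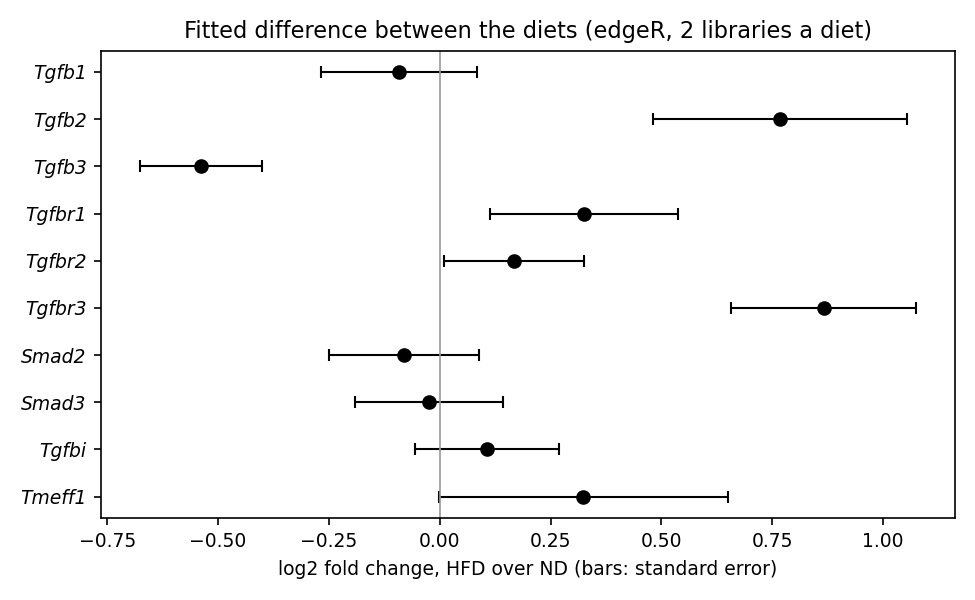
Log2 fold change of HFD over ND for each gene, with bars of 1 standard error from the edgeR fit of 2 libraries per diet. Tgfb3 lies at -0.54, Tgfbr3 at 0.87 and Tgfb2 at 0.77, and the other genes lie between -0.092 and 0.32.

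The promoter sequences below are those of the ligand Tgfb2 and of Tgfbi and Tmeff1, shown because they are the upstream and downstream ends of the Smad pathway described for follicle stem cells in mouse. RefSeq windows on GRCm38.p6, each from 250 bases before to 50 bases after a start site, were matched for 7 of the 10 genes. Printed is the stretch before the first annotated start, 5′ to 3′ on the gene's strand, with the Smad box CAGAC, or its reverse complement GTCTG, in capitals.
Tgfb2, chr1:186705990-186706239, minus strand: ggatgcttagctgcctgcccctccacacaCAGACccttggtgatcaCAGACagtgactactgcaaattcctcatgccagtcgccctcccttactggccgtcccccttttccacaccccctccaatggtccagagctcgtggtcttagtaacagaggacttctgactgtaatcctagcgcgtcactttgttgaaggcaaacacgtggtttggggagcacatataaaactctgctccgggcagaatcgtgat
Tgfbi, chr13:56609336-56609522, plus strand: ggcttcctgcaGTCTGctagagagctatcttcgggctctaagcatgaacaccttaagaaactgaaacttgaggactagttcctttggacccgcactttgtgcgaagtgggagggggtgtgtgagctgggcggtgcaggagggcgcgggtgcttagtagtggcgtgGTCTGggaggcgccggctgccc
Tmeff1, chr4:48584924-48585173, plus strand: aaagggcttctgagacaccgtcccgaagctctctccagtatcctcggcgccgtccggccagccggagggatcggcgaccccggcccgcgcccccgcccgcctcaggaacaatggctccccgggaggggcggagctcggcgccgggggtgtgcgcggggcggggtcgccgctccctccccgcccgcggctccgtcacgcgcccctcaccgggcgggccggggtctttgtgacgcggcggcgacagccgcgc

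The windows of Tgfb2 and Tgfbi each held 2 matches to CAGAC on either strand and that of Tmeff1 held none, where 49.6% of all 32851 RefSeq windows of 300 bases hold at least 1. GGGCGG, the core of the box bound by Sp1, was found on either strand 5 times for Tmeff1, 2 times for Tgfbi and not for Tgfb2, and occurs in 35.7% of windows. TGANTCA, the AP-1 site, was in none of these 3 windows and occurs in 7.81% of all. A match describes letters in a window and is not a measured binding site. The first 295 bases of Tgfb2 are overlapped by the antisense gene Gm29491, which had 0 counts in all 4 libraries.

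Tgfbi, a secreted matrix protein that binds collagens and integrins, was the most abundant of the 10 genes (chromosome 13, positions 56609523 to 56639562, plus strand). It had 5068 and 3958 counts in HFD and 4374 and 5494 counts in ND libraries, or 601 and 472 CPM in HFD and 424 and 574 CPM in ND. The diets overlapped in part, and the spread within each diet exceeded the difference of their means. Its log2 fold change was 0.11 ± 0.16 (SE; edgeR adjusted p = 0.847). Tmeff1, a transmembrane protein that antagonizes bone morphogenetic protein and nodal signals (chromosome 4, positions 48585174 to 48663131, plus strand), had 86 and 106 counts in HFD and 101 and 81 counts in ND libraries. After scaling it stood at 10.2 and 12.6 CPM in HFD and 9.78 and 8.46 CPM in ND. The diets did not overlap, but HFD library 1 lay closer to the ND libraries than to HFD library 2. The log2 fold change was 0.32 ± 0.33 (SE), so its error was as large as the difference (edgeR adjusted p = 0.738).

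The surrounding pathway was taken from 5 lists written from general knowledge, which together hold 69 genes, of which 61 were tested. None was called in either direction in edgeR, 11 had an unadjusted p under 0.05, where 13.3% of all genes tested did, and the lists' median log2 fold change was 0.038 against 0.0018 for all genes tested. DESeq2 called 1, Junb, and limma on log2(FPKM + 1) called 0. For 26 of the 61 the diets were without overlap, against 44.6% of all genes tested. The median of the 10 genes themselves was 0.14, with 6 positive and 4 negative values.

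Of 16 tested genes that keep the ligands latent or release them, 10 had positive and 6 negative log2 fold changes (median 0.17). Ltbp1, a latent TGF-beta binding protein, stood at 43.4 and 58.2 CPM in HFD and 114 and 62.3 CPM in ND libraries. Only ND library 1 was far from the rest, and the log2 fold change was -0.79 ± 0.25 (SE; edgeR adjusted p = 0.190), or -0.29 without that library and -1.16 without ND library 2. Ltbp1 was called in edgeR without a filter beyond 1 count (adjusted p = 4.56e-04), on the same counts and with the ND libraries as far apart. Dcn, the matrix proteoglycan decorin that binds TGF-beta, stood at 16.9 and 13.5 CPM in HFD and 6.30 and 11.1 CPM in ND libraries. Bgn, the related biglycan, stood at 295 and 225 CPM in HFD and 301 and 362 CPM in ND. Their log2 fold changes of 0.81 ± 0.35 and -0.35 ± 0.15 (SE) did not pass (edgeR adjusted p = 0.342 and 0.346). With 1 library left out, that of Dcn ranged from 0.46 without ND library 1 to 1.26 without ND library 2, and that of Bgn from -0.56 without HFD library 1 to -0.17 without HFD library 2. The integrin subunits Itgav, Itgb6 and Itgb8, which activate the latent ligand in epithelia, had log2 fold changes of 0.020, -0.17 and -0.029.

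Of 9 co-receptors and membrane regulators, 4 were positive and 5 negative (median -0.043). Cd109, a surface protein of keratinocytes that restrains TGF-beta signalling, stood at 340 and 340 CPM in HFD and 267 and 250 CPM in ND libraries. The diets were apart by more than the spread within either, yet the log2 fold change of 0.39 ± 0.12 (SE) did not pass (edgeR adjusted p = 0.158). Fkbp1a, which holds the type I receptor inactive, had a log2 fold change of -0.34 ± 0.14 (SE), and the co-receptor endoglin, Eng, had one of 0.87 ± 0.49 (SE) from 46 and 53 counts in HFD and 35 and 29 counts in ND. Neither passed (edgeR adjusted p = 0.329 and 0.491).

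Of 14 tested Smad partners and regulators, 5 were positive and 9 negative (median -0.061). The repressor Tgif2, which recruits corepressors to Smads, stood at 9.73 and 11.2 CPM in HFD and 25.9 and 18.6 CPM in ND libraries. Both HFD libraries were well below both ND libraries, with a log2 fold change of -1.09 ± 0.28 (SE) that missed the threshold (edgeR adjusted p = 0.0977) and passed it in edgeR without a filter beyond 1 count (adjusted p = 0.0167). Smad4, the common partner, had a log2 fold change of 0.25 ± 0.16 (SE) and the ubiquitin ligase Trim33 one of 0.17 ± 0.14 (SE), with edgeR adjusted p of 0.546 and 0.666. Without ND library 2 these were 0.081 and 0.098. The inhibitory Smad7, itself a target that feeds back on the receptors, stood at 25.8 and 28.3 CPM in HFD and 29.3 and 30.2 CPM in ND.

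Activin and its receptors share Smad2 and Smad3 with TGF-beta. Of 12 such genes 8 were tested, with 5 positive and 3 negative values (median 0.029) and 0 at an unadjusted p under 0.05, again against 13.3%. The receptor genes Acvr2b and Acvr2a had log2 fold changes of -0.98 ± 0.46 and 0.29 ± 0.18 (SE), and the activin subunit gene Inhba one of 0.58 ± 0.54 (SE), with edgeR adjusted p of 0.392, 0.545 and 0.709. Acvr2a was at 0.070 without ND library 1 and 0.56 without ND library 2, Acvr2b at -0.65 without HFD library 1, and Inhba at 0.32 without HFD library 2. Nodal had 1 count in all 4 libraries together and Mstn had none.

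Of 20 tested genes known to be induced by TGF-beta, 11 were positive and 9 negative (median 0.026), and 5 had an unadjusted p under 0.05, against 13.3% of all genes tested. Junb, an AP-1 subunit that many stimuli induce, stood at 68.8 and 71.9 CPM in HFD and 41.3 and 44.3 CPM in ND libraries. The pairs were tight and far apart, with a log2 fold change of 0.72 ± 0.16 (SE; edgeR adjusted p = 0.0514, DESeq2 adjusted p = 0.0167). Cdkn1a and Cdkn2b encode the inhibitors of cyclin-dependent kinases p21 and p15. Cdkn1a stood at 36.0 and 41.0 CPM in HFD and 19.9 and 25.6 CPM in ND, and Cdkn2b at 7.95 and 4.29 CPM in HFD and 2.13 and 2.30 CPM in ND. Their log2 fold changes were 0.76 ± 0.22 and 1.46 ± 0.56 (SE; edgeR adjusted p = 0.131 and 0.278). That of Cdkn2b was 0.95 without HFD library 1. Pmepa1, Skil and Smad7, which are induced by TGF-beta and restrain its signal, had log2 fold changes of -0.18 ± 0.20, -0.073 ± 0.15 and -0.14 ± 0.20 (SE). None of them passed (edgeR adjusted p = 0.757, 0.901 and 0.842), and the diets overlapped for Pmepa1 and Skil but not for Smad7.

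**Figure D5:**
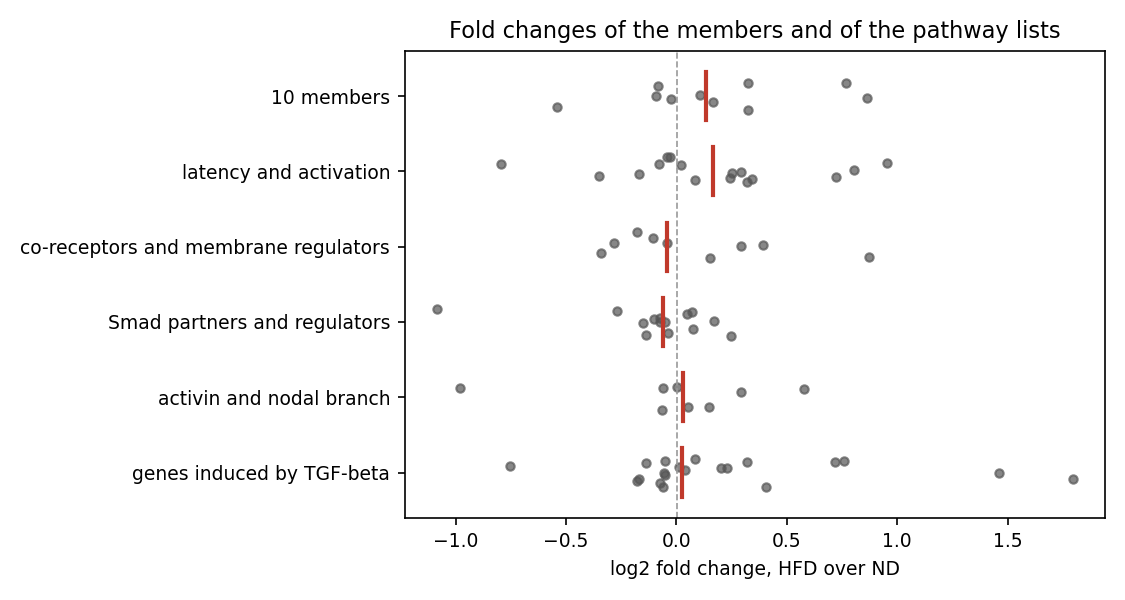
Log2 fold change of HFD over ND for the 10 genes and for every tested gene of the 5 pathway lists (points, jittered vertically), with each list's median as a red bar and the median of all genes tested as a dashed line. Medians lie between -0.061 for Smad partners and regulators and 0.17 for latency and activation.

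Markers listed for other skin cells, not all of them confined to those cells, also differed between the diets. Their part in the values above was not tested. Summed over 8 fibroblast and dermal papilla markers, levels were 82.0 and 66.0 CPM in HFD and 45.6 and 57.2 CPM in ND, with 7 of the 8 counted and Twist2 at 0 in all libraries. The 6 endothelial markers, all counted, summed to 16.6 and 22.1 CPM in HFD and 9.01 and 12.3 CPM in ND. The 8 immune markers, all counted, summed to 45.4 and 52.2 CPM in HFD and 20.2 and 37.9 CPM in ND. None of the tested markers of these 3 cell types was called. The 6 melanocyte markers summed to 22.3 and 13.4 CPM in HFD and 28.2 and 12.6 CPM in ND. Of 5 basal epidermal markers 3 were called higher, Krt14, Fgfbp1 and Ly6d, where 1.12% of all genes were, with sums of 14887 and 13632 CPM in HFD and 9891 and 11047 CPM in ND. Krt5, at 8743 and 8520 CPM in HFD and 6887 and 7180 CPM in ND, made up most of each sum together with Krt14. Krt14 stood at 6032 and 4991 CPM in HFD and 2982 and 3823 CPM in ND. Bulge cells express both keratins too, so this sum does not single out other cells. Of 6 suprabasal markers 2 were called higher, Krt10 and Krtdap, and Flg was called lower (0.228% of all genes were), with sums of 3391 and 4260 CPM in HFD and 949 and 2566 CPM in ND. Krt1 and Krt10 made up most of each sum, so it does not describe all 6 markers. Krt1 stood at 1431 and 1748 CPM in HFD and 298 and 1118 CPM in ND and was not called. Lor overlapped between the diets (log2 fold change 0.053). All of these sums but that of the melanocyte markers were without overlap between the diets and higher in HFD. Among single genes tested, 44.6% were without overlap, in either direction.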

How the data were processed

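RNA-seq was done on 2 HFD and 2 ND libraries, grouped by their titles. Among tools, the submitters' processing notes list HISAT2 2.0.1, cutadapt 1.9.1 and bcl2fastq 2.17.1.14 without roles. How reads were counted, with which strand setting, annotation and build, is not given in the sources used here. Raw counts per gene were deposited, and FPKM values by the authors that equalled count over exonic size and column total within 0.00500. Positions are on GRCm38, since all 10 genes had the same position in GENCODE M21, as did 99.4% of matched identifiers. The floor of 3 counts covers counting error only, because molecules carried no identifiers. SDs rest on the spread of the gene itself between the libraries of a diet. SEs and p-values of edgeR rest on a spread between libraries that is in part shared across genes. This spread is estimated anew under each filter, so the p-value of a gene can change while its counts do not. Calls made only without the filter are therefore weak evidence.

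Counts were tested two-sided with edgeR 4.0.16 (quasi-likelihood test, R 4.3.3), TMM scaling and the default filter (about 10 counts in at least 2 libraries, 15 in total), which kept 14479 genes. A gene could pass through 1 diet alone. P-values were adjusted by Benjamini-Hochberg over all genes tested. The SE is the log2 fold change over the square root of F. DESeq2 1.42.0, limma 3.58.1, other scalings, filters and pseudocounts, leaving out each library and a replicate block were alternatives. A TPM-type scaling was added after seeing the data. The fits were tested on counts simulated with 200 changed genes. Of 1.5-fold and 2-fold changes edgeR called 8.75% and 50%, DESeq2 7.5% and 43.8%, and limma 0% and 6.25%. Differences of the size seen in the 10 genes could thus be missed.

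The 10 genes and the pathway lists were chosen with earlier results of these data known. Named are all 10 genes and, of each list, called genes and the 3 with the smallest p. Itgav, Itgb6, Itgb8, Pmepa1, Skil, Smad7, Nodal and Mstn, and those in the closing section, were added after their values were seen.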

Additional observations from a re-analysis of the deposited data

How the results depend on the processing

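None of the 10 genes was called under RLE size factors, library totals alone, a filter of at least 50 counts, limma with a pseudocount of 1 or 0.1, TPM-type scaling, or with any 1 library left out. Tgfb2, Tgfb3, Tgfbr1, Tgfbr3 and Tmeff1 kept their sign in all 13 alternatives. Tgfb3 was called with DESeq2 (log2 fold change -0.54, adjusted p = 0.0265) and in edgeR without a filter beyond 1 count (-0.55, adjusted p = 0.0132), and Tgfbr3 with both (0.86, adjusted p = 0.0450, and 0.86, adjusted p = 0.0235). Over all their alternatives the adjusted p ranged from 0.0132 to 0.584 for Tgfb3 and from 0.0235 to 0.464 for Tgfbr3. With 1 library left out, log2 fold changes ranged from -0.24 to 0.067 for Tgfb1, 0.49 to 1.0015 for Tgfb2, -0.64 to -0.44 for Tgfb3, 0.10 to 0.52 for Tgfbr1, -0.025 to 0.39 for Tgfbr2, 0.86 to 0.88 for Tgfbr3, -0.27 to 0.089 for Smad2, -0.13 to 0.076 for Smad3, -0.092 to 0.34 for Tgfbi and 0.16 to 0.47 for Tmeff1. These refits take the spread of the remaining pair for the single library as well. Signs turned for Tgfb1 (0.067) and Tgfbr2 (-0.025) without ND library 2, for Smad2 (0.089) without HFD library 1, for Smad3 (0.076) without HFD library 2, and for Tgfbi without HFD library 1 (-0.079) or ND library 1 (-0.092), and none of these genes was called in any fit.

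Over all genes edgeR called 162 higher and 33 lower. Other splits were 275 and 119 with DESeq2, 408 and 225 without a filter beyond 1 count, 220 and 53 with at least 50 counts, 132 and 65 with library totals, 88 and 3 with TPM-type scaling, 280 and 101 at an adjusted p under 0.1, and 2 and 0 with limma at either pseudocount. Leaving out 1 library gave 0 to 81 higher and 0 to 2 lower, the fewest without ND library 1, where 1488 genes still had an unadjusted p under 0.05. Of the pathway genes, 0 were called higher and 0 lower in the main test and with any library left out. DESeq2 called 1 higher, Junb, as did the filter of 50 counts, edgeR without a filter 3 higher, Thbs1, Junb and Cdkn1a, and 2 lower, Ltbp1 and Tgif2, and a threshold of 0.1 called 1 higher, Junb, and 1 lower, Tgif2. The cause of these differences was not tested.

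The replicate numbers are shared between the diets but no label says that they pair libraries, and the deviations of same-numbered libraries did not go together (correlation -0.0046 over genes). With the replicate block edgeR called 308 higher and 111 lower genes, 2 higher (Thbs1 and Junb) and 2 lower (Ltbp1 and Tgif2) pathway genes, and Tgfbr3 (log2 fold change 0.87, adjusted p = 0.0371). No other of the 10 genes was called with the block.

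In CPM instead of FPKM, mean shares in HFD and ND libraries were 26.7% and 22.7% for Tgfb1, 10.4% and 4.78% for Tgfb2 and 62.9% and 72.5% for Tgfb3. Among receptors they were 19.4% and 19.3% for Tgfbr1, 62.0% and 67.9% for Tgfbr2 and 18.7% and 12.8% for Tgfbr3, and for Smad2 and Smad3 54.3% and 55.4%, and 45.7% and 44.6%. Shares of counts rise with transcript length, and on that scale the mean of Smad2 exceeds that of Smad3.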

Other observations

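Some pathway genes outside the naming rule, picked here after their values were seen, differed more between libraries of 1 diet than between the diets. Thbs1, which encodes thrombospondin 1, an activator of latent TGF-beta, stood at 547 and 476 CPM in HFD libraries and 94.5 and 434 CPM in ND libraries, so that ND library 1 alone was low. Its log2 fold change was 0.95 ± 0.46 (SE), with an unadjusted edgeR p of 0.0605. It was called in edgeR without a filter beyond 1 count (0.95, adjusted p = 2.51e-10). The counts of Thbs1 were the same in both fits and its ND libraries as far apart. That small p thus reflects the spread taken by the fit and not closer libraries. Ccn2, a connective tissue growth factor gene that TGF-beta and mechanical load induce, stood at 118 and 67.6 CPM in HFD and 52.3 and 141 CPM in ND. Inhbb, a subunit of activin B, stood at 164 and 118 CPM in HFD and 101 and 193 CPM in ND. In ND library 2, Thbs1, Ccn2 and Inhbb were each higher than in ND library 1.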
